A study of Homo sapiens with 54 samples.

Results

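The genes described here are 10 known targets of the transcription factor NF-κB, whose activity was not measured. They are the chemokine genes CXCL1, CXCL2, CXCL5, CXCL8, CCL2 and CCL20, the cytokine gene IL6, and the feedback genes NFKBIA, TNFAIP3 and BIRC3. They were taken by symbol from a table of 58870 genes, 33416 of them detected at least once, and all 10 were found. The members were chosen with earlier results of these data known, so their counts beside shares of all genes are descriptions. In empty-vector cells 5 µM of the compound coded CP14 raised 6 of the 9 members with enough counts in every comparison by more than 2-fold, CXCL8 by 6.66-fold among them, where 13.8% of all genes changed by that much in either direction (edgeR, adjusted p below 0.05 in each). With the other compounds and doses in the same cells none of the 9 met both criteria, 3 to 6 had an unadjusted p under 0.05, DESeq2 also called 0, and edgeR called between 0.019% and 0.518% of all genes.

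NF-κB is a family of dimeric transcription factors that is held in the cytoplasm by inhibitor proteins of the IκB family. Receptors for tumor necrosis factor, interleukin-1 and microbial products activate the IκB kinase complex, which marks IκB for destruction and frees NF-κB to enter the nucleus and bind kappaB sites. Its targets include chemokines that recruit neutrophils (CXCL1, CXCL2, CXCL5 and CXCL8), monocytes (CCL2) and CCR6-bearing lymphocytes and dendritic cells (CCL20). They also include genes that restrain the pathway, such as NFKBIA, which encodes IκBα, and TNFAIP3, which encodes the ubiquitin-editing enzyme A20. BIRC3 encodes cIAP2, a ubiquitin ligase that acts in tumor necrosis factor receptor complexes.

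RNA sequencing was performed in A549 cells, a human lung adenocarcinoma line, that carried either an insertless (empty) vector or a vector expressing USP18, a protease that removes the ubiquitin-like protein ISG15 and restrains interferon signaling. The labels and methods do not say how many populations were engineered with each vector. Differences between populations and effects of the vector can therefore not be told apart. For 48 h, cells received DMSO (vehicle), CP2 at 2 or 5 µM, or CP14 or CP18 at 1, 2.5 or 5 µM, and the labels identify the compounds by these codes alone. All 18 groups had 3 replicates, giving 54 libraries. Nothing in the labels says that replicates were separate cultures, so that the p-values below measure the spread between these samples, which may be technical.

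Between 16673228 and 25609062 fragments per library were assigned to genes by RSEM (expected counts). Levels are given as CPM, counts scaled to a common library size with edgeR's TMM factors, as mean ± SD of 3 libraries. USP18 itself lay between 8.77 and 12.3 CPM in the 27 empty-vector libraries and between 947 and 2115 CPM in the 27 libraries of USP18 cells. The epithelial markers fixed for checking the label were all above 1 CPM in every library (6 of 6). Of the 6 alveolar type 2 markers, 5 stayed under 1 CPM in every library, the surfactant genes among them, and the sixth, LAMP3, did not. Among the blood leukocyte markers, PTPRC, LYZ and CD3E were under 1 CPM in every library, whereas CD68 was above it in all 54 (mean 42.05 CPM) and CD14 in 49 (mean 2.29 CPM). Of the 5 fibroblast markers, COL1A2, DCN and PDGFRB were under 1 CPM in every library, COL1A1 was above it in all 54 (mean 7.92 CPM) and LUM in 24 (mean 1.10 CPM). All 4 endothelial markers were also under 1 CPM throughout. Mitochondrial transcripts made up 2.15% to 4.00% of counts. Short RNAs without a poly(A) tail summed to between 23.6 and 886 CPM, with overlapping ranges between vehicle (66.6 to 498 CPM) and 5 µM CP14 (50.2 to 92.7 CPM) in empty-vector cells.

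The CXC chemokine genes lie together on chromosome 4 of GRCh38 (coordinates from GENCODE v44). CXCL8 spans chr4:73740519-73743716, CXCL1 chr4:73869393-73871308 and CXCL5 chr4:73995642-73998677, followed by CXCL2 at chr4:74097040-74099196. CXCL5 and CXCL2 are on the minus strand. CCL2 (chr17:34255274-34257208), CCL20 (chr2:227805739-227817564), IL6 (chr7:22725884-22732002), TNFAIP3 (chr6:137867214-137883314) and BIRC3 (chr11:102317484-102339403) are on the plus strand, and NFKBIA (chr14:35401079-35404749) is on the minus strand. BIRC3, CXCL5, IL6 and TNFAIP3 overlap annotated genes on the opposite strand. CXCL1, CXCL2 and CXCL3 are close paralogs that can share reads, and CXCL2 had fractional counts in 11 libraries and CXCL5 in 13, so that their counts carry some uncertainty from the assignment of shared reads.

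Promoter sequences were available for 9 of the 10 genes from RefSeq (GRCh38.p14), each covering 250 bases before and 50 bases after the transcription start. The 9-letter core GGAATTTCC, searched on both strands, was present in 5 of these 9 promoters (CXCL1, CXCL2, CXCL5, CXCL8 and NFKBIA) and in 0.461% of all 35116 promoters of the same length. The 10-letter kappaB consensus, which overlaps the core in CXCL1, CXCL2, CXCL5 and NFKBIA, was present in 8 of 9 and in 5.91% of all promoters. It was absent from the CXCL8 window, which held the core alone. The motifs were chosen with these promoters in view, and a match describes letters and not a bound site. IL6 held GGGATTTTCC from 73 bases before the start, and CCL20 held GGAAAACCCC from 79 bases before it. Shown here are the promoters of the 4 genes whose responses differed between the cell types, and of TNFAIP3, which holds a pair of neighbouring matches. Sequences read 5′ to 3′ along the gene's strand, with matches to either motif in capitals.
CXCL2, chr4:74099146-74099445, minus strand, match from 78 bases before the start: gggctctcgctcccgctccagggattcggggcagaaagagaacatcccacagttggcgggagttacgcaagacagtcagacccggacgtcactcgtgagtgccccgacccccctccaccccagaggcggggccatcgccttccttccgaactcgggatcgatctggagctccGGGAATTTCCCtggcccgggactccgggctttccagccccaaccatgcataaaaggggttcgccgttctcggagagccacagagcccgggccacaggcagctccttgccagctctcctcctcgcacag
CXCL5, chr4:73998628-73998927, minus strand, match from 91 bases before the start: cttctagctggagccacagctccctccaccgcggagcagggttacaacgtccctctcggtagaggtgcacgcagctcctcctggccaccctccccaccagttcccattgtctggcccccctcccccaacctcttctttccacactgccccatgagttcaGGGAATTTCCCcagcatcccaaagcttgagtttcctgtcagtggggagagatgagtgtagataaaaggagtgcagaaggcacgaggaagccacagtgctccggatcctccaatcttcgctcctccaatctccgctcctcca
CXCL8, chr4:73740319-73740618, plus strand, match from 91 bases before the start: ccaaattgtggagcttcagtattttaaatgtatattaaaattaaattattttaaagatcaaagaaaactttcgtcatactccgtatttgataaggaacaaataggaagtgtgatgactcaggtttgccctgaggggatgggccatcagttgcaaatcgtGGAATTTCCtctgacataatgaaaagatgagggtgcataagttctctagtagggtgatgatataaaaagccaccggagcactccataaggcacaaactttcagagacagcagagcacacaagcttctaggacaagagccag
NFKBIA, chr14:35404700-35404999, minus strand, match from 81 bases before the start: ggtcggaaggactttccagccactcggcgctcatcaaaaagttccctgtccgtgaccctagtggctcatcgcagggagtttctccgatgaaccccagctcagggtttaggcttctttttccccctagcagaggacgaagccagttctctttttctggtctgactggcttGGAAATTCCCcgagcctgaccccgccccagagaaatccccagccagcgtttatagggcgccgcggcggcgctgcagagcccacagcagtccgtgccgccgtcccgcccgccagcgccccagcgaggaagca
TNFAIP3, chr6:137867009-137867308, plus strand, matches from 67 and 55 bases before the start: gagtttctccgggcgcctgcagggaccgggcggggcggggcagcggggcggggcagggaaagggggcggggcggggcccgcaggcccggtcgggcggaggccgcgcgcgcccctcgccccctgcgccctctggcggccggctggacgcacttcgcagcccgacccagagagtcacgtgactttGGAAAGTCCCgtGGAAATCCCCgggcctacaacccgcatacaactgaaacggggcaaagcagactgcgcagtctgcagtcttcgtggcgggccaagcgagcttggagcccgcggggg

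Of the 10 genes, 9 were above the floor of 3 counts in every group. IL6 was the exception. It did not exceed that floor anywhere in 14 of the 18 groups and had no count in 31 of the 54 libraries. To compare genes, levels were divided by exon length. In vehicle-treated empty-vector cells CXCL5 had the highest level at 104.5 CPM per kb, ahead of NFKBIA at 16.9, CXCL2 at 7.98, BIRC3 at 5.67, CXCL1 at 5.60 and CXCL8 at 3.16 CPM per kb. CCL2, TNFAIP3 and CCL20 were lower, at 0.778, 0.761 and 0.626 CPM per kb, and IL6 was lowest at 0.0165 CPM per kb. In USP18 cells with vehicle, CXCL5 was again highest at 61.9 CPM per kb, whereas CXCL8 (7.32 CPM per kb) was above CXCL2 (2.35 CPM per kb).

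**Figure D1:**
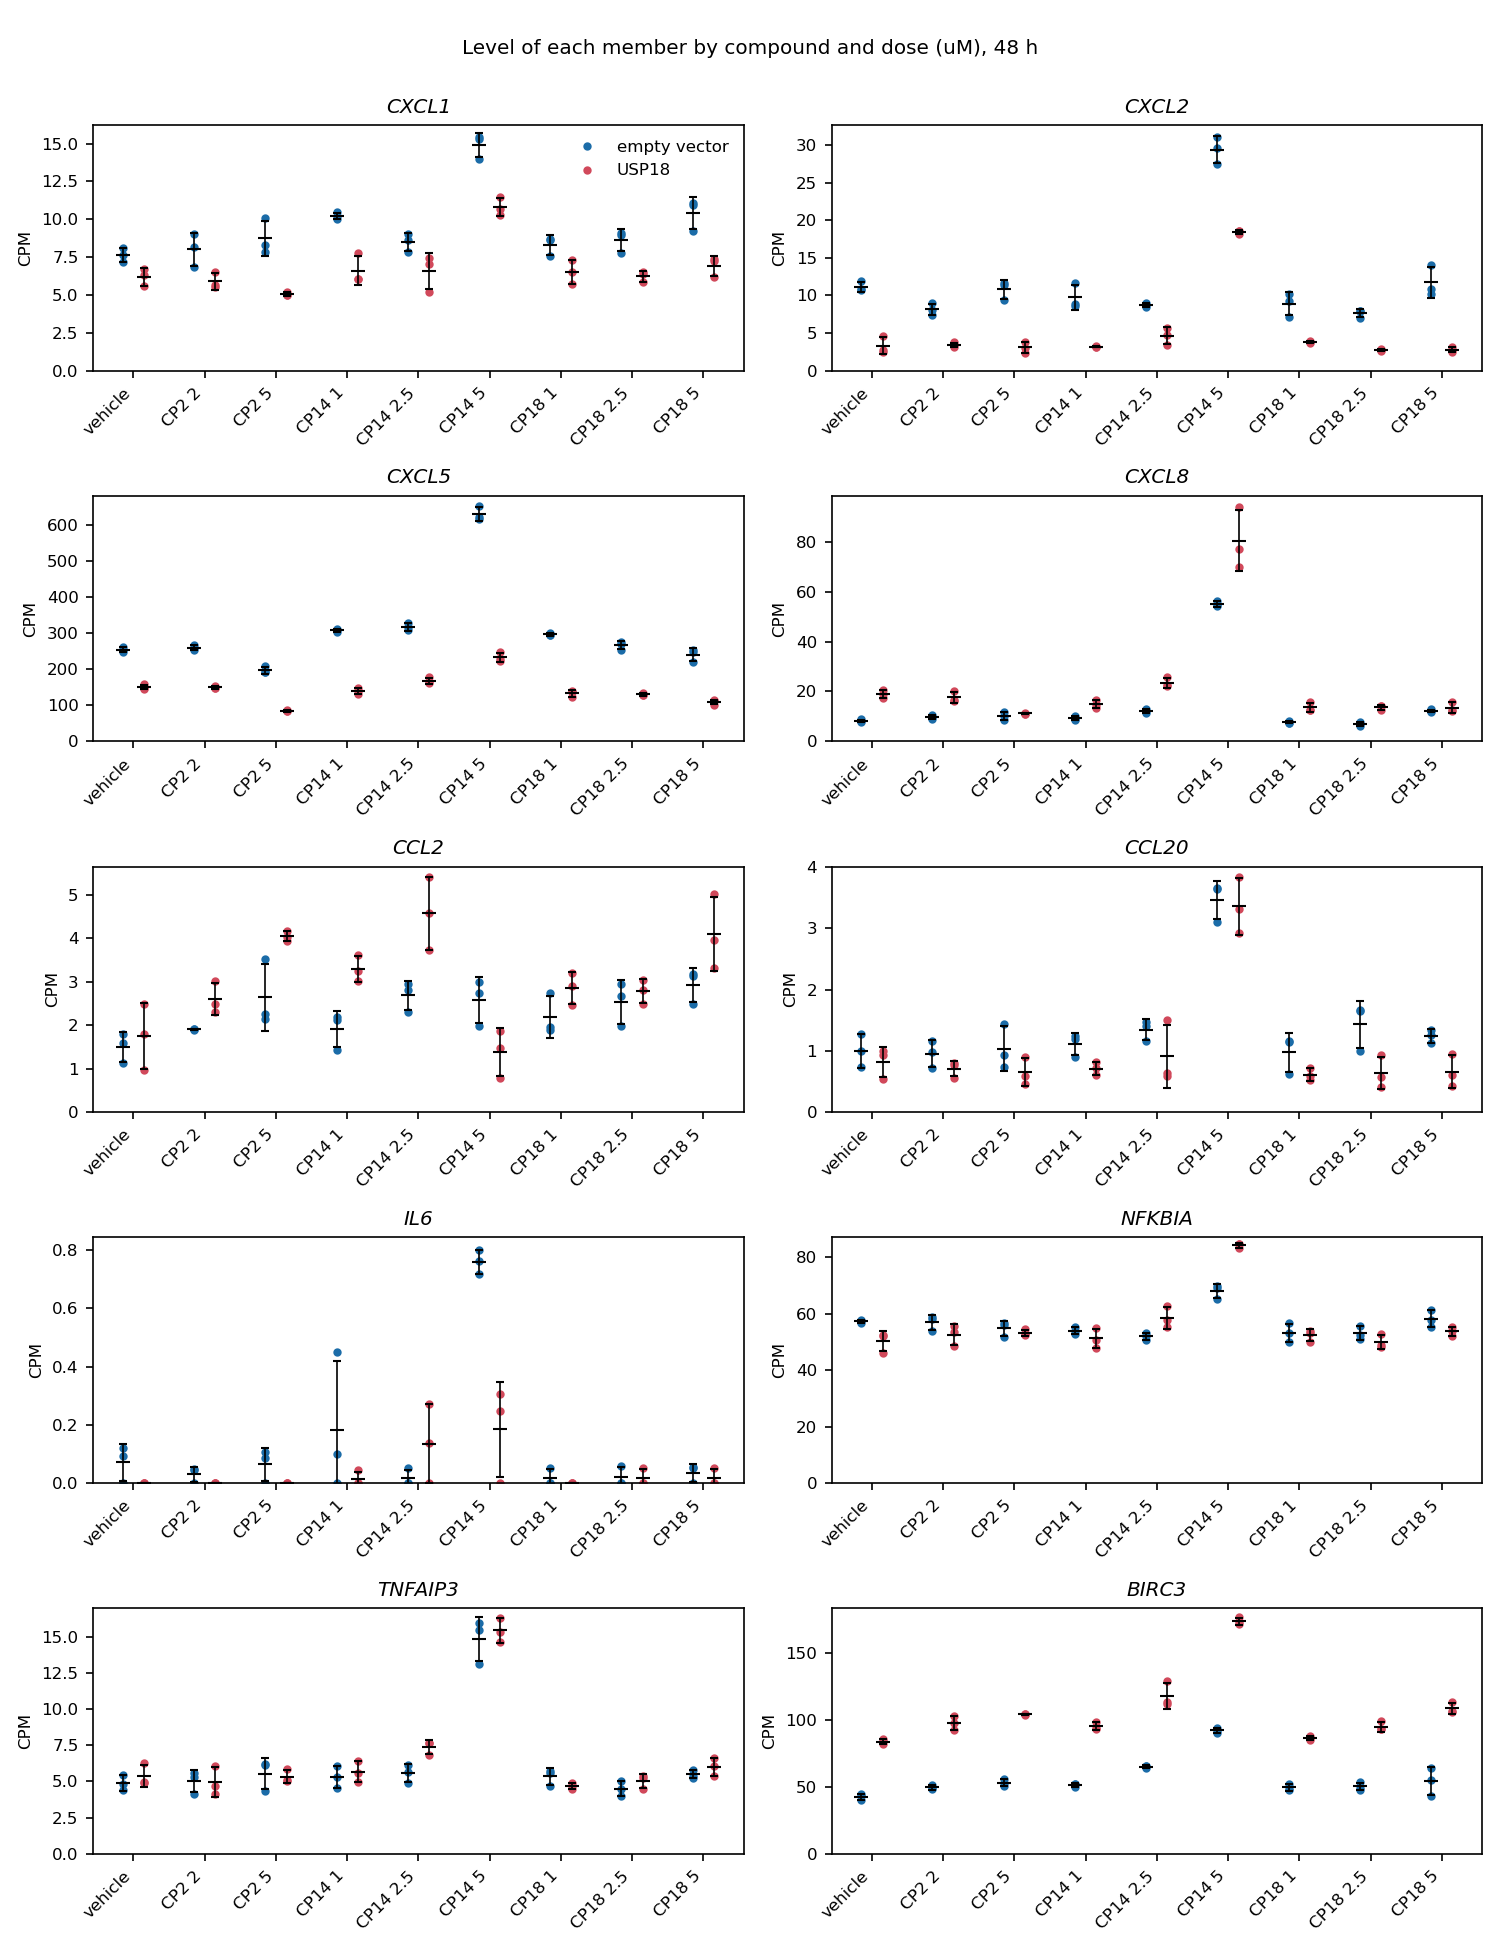
Level of each gene in CPM (vertical axes from 0) by compound and dose in µM (horizontal axes), with points for the 3 libraries of each group and bars for mean ± SD, in empty-vector cells (blue) and USP18 cells (red). At 5 µM CP14 stand the highest group means of every gene but CCL2, whose highest mean, 4.57 CPM, is at 2.5 µM CP14 in USP18 cells.

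Across the 18 groups the 5 µM CP14 libraries headed the order for 9 of the 10 genes. CXCL1, CXCL2, CXCL5, CCL20 and IL6 were highest in empty-vector cells with 5 µM CP14, and CXCL8, NFKBIA, TNFAIP3 and BIRC3 were highest in USP18 cells with that dose. For CXCL1, CXCL2, CXCL5, CXCL8, IL6, NFKBIA and BIRC3 the libraries of the leading group lay above all libraries of the other 17 groups. For CCL20 and TNFAIP3 the 2 leading groups, which were the 5 µM CP14 groups of both cell types, overlapped each other and lay above all others. Below these groups most neighbours in the order overlapped. Of the 17 neighbouring pairs, those without overlap numbered 8 for CXCL5, 6 for BIRC3, 4 for CXCL8, 3 for CXCL2, 2 each for CXCL1, NFKBIA and TNFAIP3, and 1 each for CCL2, CCL20 and IL6.

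The first comparison set USP18 cells beside empty-vector cells in the absence of compound. CXCL2 was lower in USP18 cells and CXCL8 higher, and these were the only 2 members called. A call needed a rise or fall of more than 1 on the log2 scale together with an adjusted p below 0.05. Over all genes tested, 10.1% were called. CXCL2 stood at 10.8, 11.9 and 10.8 CPM in the empty-vector libraries and at 2.54, 2.73 and 4.59 CPM in the USP18 libraries. The groups did not overlap, and CXCL2 fell 3.37-fold (log2 -1.75 ± 0.16 SE, adjusted p = 3.6e-08, edgeR). CXCL8 was 8.01, 7.74 and 8.81 CPM in empty-vector cells and 17.3, 19.0 and 20.6 CPM in USP18 cells. It was thus higher in each USP18 library, by 2.30-fold (log2 1.20 ± 0.09 SE, adjusted p = 2.1e-09).

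BIRC3 rose by 0.98 on the log2 scale from 42.4 ± 2.4 to 83.6 ± 1.9 CPM (adjusted p = 2.1e-12). Without replicate 3 of the empty-vector vehicle group its log2 change was 1.015 (edgeR, adjusted p = 1.3e-12), which added it to the calls. CXCL5 fell by 0.75 on the log2 scale (255 ± 7.2 to 151 ± 6.7 CPM, adjusted p = 1.0e-12), and CXCL1 and NFKBIA fell by 0.29 and 0.19 (adjusted p = 0.035 and 0.0032). CXCL1 passed 0.05 in only 2 of the 6 fits that each left out 1 library. The intervals of CCL2 (log2 -0.43 to 0.88), CCL20 (-0.998 to 0.44) and TNFAIP3 (-0.17 to 0.43) included 0. The median over the 9 members tested was -0.19, against -0.01 over all genes. Without compound the summed epithelial markers also differed between the vectors, at 13041 to 13218 CPM with the empty vector and 8669 to 8923 CPM with USP18. The fibroblast sum (12.6 to 15.4 against 5.07 to 5.88 CPM) and the leukocyte sum (39.6 to 41.1 against 34.4 to 37.7 CPM) were also lower with USP18. The alveolar type 2 sum was higher with USP18 (0.556 to 0.954 against 1.64 to 2.24 CPM), and the endothelial sums overlapped. The part of these differences in the results was not tested. In these bulk libraries fewer expressing cells and less RNA per cell cannot be told apart.

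**Figure D2:**
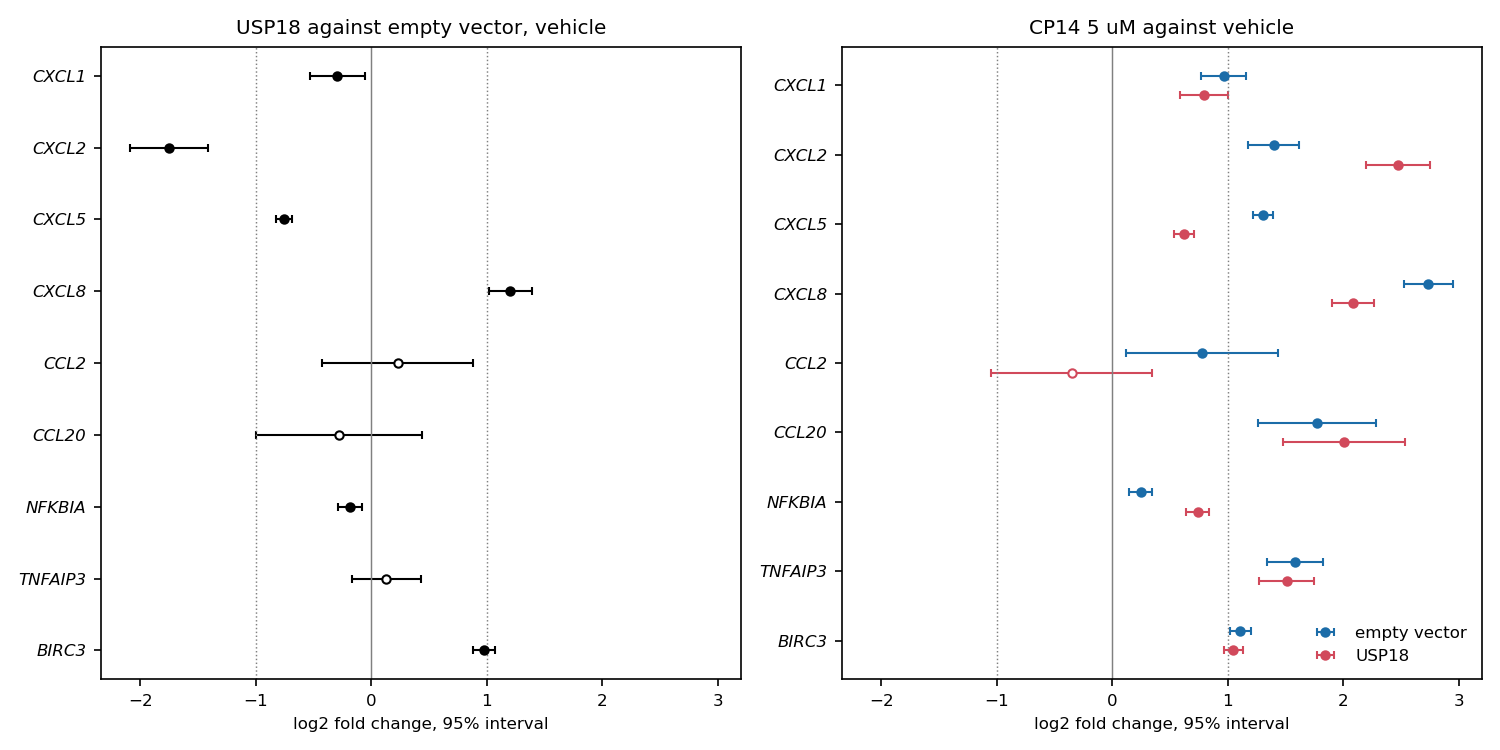
Log2 fold changes (horizontal axes) with 95% intervals for USP18 against empty-vector cells with vehicle (left) and for 5 µM CP14 against vehicle in each cell type (right). Filled points have an adjusted p under 0.05 and dotted lines mark a log2 change of 1, and CXCL2 changes sign between the panels while CXCL8 lies above 1 in both. IL6, at few or no counts with vehicle, is left out.

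The comparison with vehicle in empty-vector cells asked what each compound did to the genes. IL6 passed the filter on low counts only through the 5 µM CP14 libraries and is left out of the counts that follow. With 5 µM CP14, 6 of the other 9 members were called, all higher, against 13.8% of all genes. Because the members were chosen with earlier results of these data known, this count is no test of the set. At an adjusted p below 0.05 alone, all 9 were higher. Their median log2 change was 1.302 and that of all genes 0.01. Among the neutrophil-attracting chemokines, CXCL8 went from 8.01, 7.74 and 8.81 CPM with vehicle to 56.4, 54.7 and 54.2 CPM. All 3 treated libraries were far above the vehicle libraries (log2 2.74 ± 0.10 SE, adjusted p = 1.3e-15). CXCL2 went from 11.2 ± 0.64 to 29.4 ± 1.8 CPM, 2.64-fold (adjusted p = 2.0e-10). CXCL5, the most abundant member, stood at 252.5, 262.5 and 248.5 CPM with vehicle and at 652, 616 and 621 CPM with CP14. That was a rise of 2.47-fold without overlap (log2 1.302 ± 0.041 SE, adjusted p = 7.2e-17). CXCL1 rose from 7.63 ± 0.46 to 14.9 ± 0.78 CPM, just under the threshold of size (log2 0.96, adjusted p = 1.3e-08). It passed that threshold without replicate 3 of the treated group (edgeR, log2 1.005, adjusted p = 7.5e-08).

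The CC chemokines responded unequally. CCL20 rose 3.41-fold, from 1.27, 0.729 and 0.993 CPM to 3.11, 3.65 and 3.64 CPM (adjusted p = 1.9e-06). CCL2 was 1.13, 1.80 and 1.59 CPM with vehicle and 3.00, 2.75 and 1.99 CPM with CP14, a log2 change of 0.78 (adjusted p = 0.038). Across the 12 fits that each left out 1 library, the adjusted p of CCL2 ran from 0.021 to 0.14, and 8 of these fits kept it under 0.05.

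Of the feedback genes, TNFAIP3 rose 2.99-fold, from 4.85, 4.38 and 5.48 CPM to 15.5, 15.9 and 13.1 CPM (log2 1.58 ± 0.12 SE, adjusted p = 1.1e-10). BIRC3 rose 2.15-fold, from 42.4 ± 2.4 to 92.1 ± 2.0 CPM (adjusted p = 2.9e-15). NFKBIA rose least, from 57.2 ± 0.39 to 68.1 ± 2.5 CPM (log2 0.25 ± 0.05 SE, adjusted p = 1.4e-04). The genes that encode A20 and cIAP2 were thus called and the gene that encodes IκBα was not, although no library of NFKBIA overlapped between the groups.

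In USP18 cells 5 µM CP14 was accompanied by calls for 5 of the 9 members other than IL6, all higher, with 18% of all genes called. The median log2 change was 1.05 over these 9 and 0.01 over all genes. Among them CXCL2 changed most, from 2.54, 2.73 and 4.59 CPM to 18.2, 18.6 and 18.5 CPM (5.56-fold, log2 2.48 ± 0.13 SE, adjusted p = 4.9e-13). CXCL8 rose 4.23-fold, from 17.3, 19.0 and 20.6 CPM to 94.1, 70.1 and 77.3 CPM (adjusted p = 6.6e-15). CCL20 rose 4.01-fold from 0.826 ± 0.24 to 3.36 ± 0.46 CPM (adjusted p = 4.4e-07). TNFAIP3 rose 2.85-fold to 15.4 ± 0.85 CPM (adjusted p = 1.4e-10) and BIRC3 2.07-fold to 174 ± 2.5 CPM (adjusted p = 7.0e-16). CXCL1, NFKBIA and CXCL5 rose by 0.79, 0.74 and 0.62 on the log2 scale, below the threshold of size (adjusted p from 3.0e-11 to 4.6e-07 for CXCL5 and CXCL1, and 1.0e-11 for NFKBIA). CCL2 was 1.75 ± 0.76 CPM with vehicle and 1.38 ± 0.54 CPM with CP14, with overlapping libraries (log2 -0.35, adjusted p = 0.36).

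Other transcripts moved in the same libraries. The summed leukocyte markers went from between 39.6 and 41.1 CPM with vehicle to between 62.9 and 73.4 CPM with 5 µM CP14 in empty-vector cells, and from between 34.4 and 37.7 to between 94.8 and 100.0 CPM in USP18 cells. Most of this sum was CD68, a lysosomal protein gene that epithelial cells also express (36.9 ± 0.80 to 66.8 ± 5.3 CPM in empty-vector cells), and PTPRC, which defines leukocytes, did not exceed 0.352 CPM in any library. The summed epithelial markers were lower, 7458 to 8028 CPM with CP14 against 13041 to 13218 CPM with vehicle in empty-vector cells, and 6357 to 6583 against 8669 to 8923 CPM in USP18 cells. The alveolar type 2 sum, nearly all of it LAMP3, was 0.556 to 0.954 CPM with vehicle and 10.6 to 11.7 CPM with CP14 in empty-vector cells, and 1.64 to 2.24 against 37.4 to 41.0 CPM in USP18 cells. LAMP3, which encodes a lysosomal membrane protein that mature dendritic cells also express, rose by 4.62 and 4.55 on the log2 scale (adjusted p = 2.1e-15 and 3.1e-18), and the other 5 markers of that list stayed under 1 CPM. The fibroblast sum was 12.6 to 15.4 CPM with vehicle and 6.98 to 7.28 CPM with CP14 in empty-vector cells, and 5.07 to 5.88 against 4.13 to 4.455 CPM in USP18 cells. USP18 itself rose in USP18 cells with 5 µM CP14, from 1307 ± 19 to 2047 ± 76 CPM (log2 0.64, adjusted p = 3.9e-13). The part of these shifts in the results for the members was not tested.

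IL6 was detected mainly with 5 µM CP14. In empty-vector cells it had 2, 0 and 3 counts in the vehicle libraries. With 5 µM CP14 it had 14, 16 and 13, or 0.760 ± 0.041 CPM against 0.0711 ± 0.063 CPM. The treated libraries were all above the vehicle libraries. In USP18 cells no vehicle library had a count, and the 5 µM CP14 libraries had 0, 5 and 6. One treated library was thus at the vehicle level. The mean of 0.185 CPM was 1.26 times the level that 3 counts per vehicle library would give (0.146 CPM). Outside the 5 µM CP14 groups, IL6 exceeded 3 counts only in 1 library of empty-vector cells with 1 µM CP14 (8 counts) and 1 library of USP18 cells with 2.5 µM CP14 (5 counts). Because IL6 passed the filter on low counts only in fits that held the 5 µM CP14 libraries, in which it was highest, its values are given as a description with no test.

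Whether the response to a compound differed between the cell types was tested as an interaction, which is the log2 change in USP18 cells minus that in empty-vector cells and was called on the adjusted p alone. At 5 µM CP14, 4 of the 9 members other than IL6 were called, against 27.7% of all genes. CXCL2 responded more in USP18 cells (interaction 1.08 ± 0.18 SE, adjusted p = 9.1e-05), starting from a lower level with vehicle. NFKBIA also responded more (0.49 ± 0.07 SE, adjusted p = 1.2e-05), reaching 83.3, 84.8 and 84.6 CPM in USP18 cells against 65.3, 69.9 and 69.2 CPM in empty-vector cells. CXCL5 and CXCL8 responded less in USP18 cells on the log2 scale (-0.68 ± 0.06 and -0.66 ± 0.14 SE, adjusted p = 2.7e-08 and 0.0012). CXCL8 started from a higher level with vehicle in USP18 cells (18.9 ± 1.6 against 8.19 ± 0.56 CPM). It also reached a higher one with CP14 there (80.5 ± 12 against 55.1 ± 1.2 CPM). CXCL5 reached 247, 223 and 227 CPM in USP18 cells, which was below its level in empty-vector cells with vehicle. The interactions of CXCL1 (95% interval -0.46 to 0.12), CCL20 (-0.52 to 0.98), TNFAIP3 (-0.42 to 0.27) and BIRC3 (-0.18 to 0.06) included 0. CCL2 had an interaction of -1.13 (adjusted p = 0.076), which reached 0.022 and 0.032 in edgeR without replicate 2 of the USP18 vehicle group and without replicate 1 of the USP18 group with 5 µM CP14.

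CXCL5 and CXCL8 also differed in response between the cell types with other treatments. For CXCL5 the interaction was negative and called with 5 µM CP2 (-0.49, adjusted p = 2.0e-04), 1 µM CP14 (-0.39, 7.7e-04) and 1, 2.5 and 5 µM CP18 (-0.40, -0.28 and -0.40, adjusted p = 0.0020, 0.027 and 0.032). The call at 2.5 µM CP18 was lost, with adjusted p up to 0.13, without replicate 1 or 3 of the empty-vector vehicle or CP18 group, replicate 2 or 3 of the USP18 vehicle group, or replicate 3 of the USP18 group with CP18. That at 5 µM CP18 was kept only when replicate 3 of either CP18 group was the library left out, and otherwise had an adjusted p up to 0.16. For CXCL8 the interaction was called with 5 µM CP2 (-1.08 ± 0.15 SE, adjusted p = 7.6e-04), 5 µM CP18 (-1.08 ± 0.15 SE, 0.0017) and 1 µM CP14 (-0.54, 0.027). The last was lost, with adjusted p up to 0.072, without replicate 1 or 2 of the empty-vector vehicle group, replicate 2 or 3 of the USP18 vehicle group, or replicate 1 of either CP14 group. With 2.5 µM CP14, CXCL2 (0.86, adjusted p = 0.039) and NFKBIA (0.36, 0.0062) were called in the positive direction, and CXCL2 kept its call only without replicate 3 of the USP18 vehicle or 2.5 µM CP14 group (adjusted p otherwise up to 0.12). CXCL5 was called with that dose without replicate 1 of the USP18 treated group (-0.20, edgeR, adjusted p = 0.020). With 1 µM CP18, CXCL2 was called without replicate 3 of the USP18 vehicle group (0.86, edgeR, 0.030) and CXCL8 without replicate 1 of the USP18 treated group (-0.48, 0.038). Members called numbered 2 of 9 with 5 µM CP2 (0.92% of all genes), 2 with 1 µM CP14 (5.79%), 2 with 2.5 µM CP14 (8%), and 1, 1 and 2 with 1, 2.5 and 5 µM CP18 (7.19%, 0.197% and 0.268%). None was called with 2 µM CP2 (0.0569% of all genes, 2 members at an unadjusted p under 0.05, 0 with DESeq2). The interactions share the vehicle libraries and are therefore not independent of each other.

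At the other doses few members passed the threshold of size. In empty-vector cells edgeR called none of the 9 members tested with 2 or 5 µM CP2 (0.0316% and 0.355% of all genes), 1 or 2.5 µM CP14 (0.019% and 0.518%) or 1, 2.5 or 5 µM CP18 (0.0254%, 0.191% and 0.294%), and DESeq2 also called 0. At an unadjusted p under 0.05 there were 3 and 4 members with CP2, 3 and 6 with CP14, and 3, 5 and 4 with CP18. In USP18 cells 1 member, CCL2, was called with 5 µM CP2 (0.774% of all genes), 2.5 µM CP14 (1.99%) and 5 µM CP18 (0.447%). None was called there with 2 µM CP2 (0.0316%), 1 µM CP14 (0.399%), or 1 or 2.5 µM CP18 (0.317% and 0.375%), where 2, 4, 3 and 4 members had an unadjusted p under 0.05 in edgeR and DESeq2 called 0. Over these 14 comparisons the median log2 change of the members ran from -0.10 to 0.31. All comparisons within a cell type share the same 3 vehicle libraries, so that a deviation of these would appear in each of them.

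**Figure D3:**
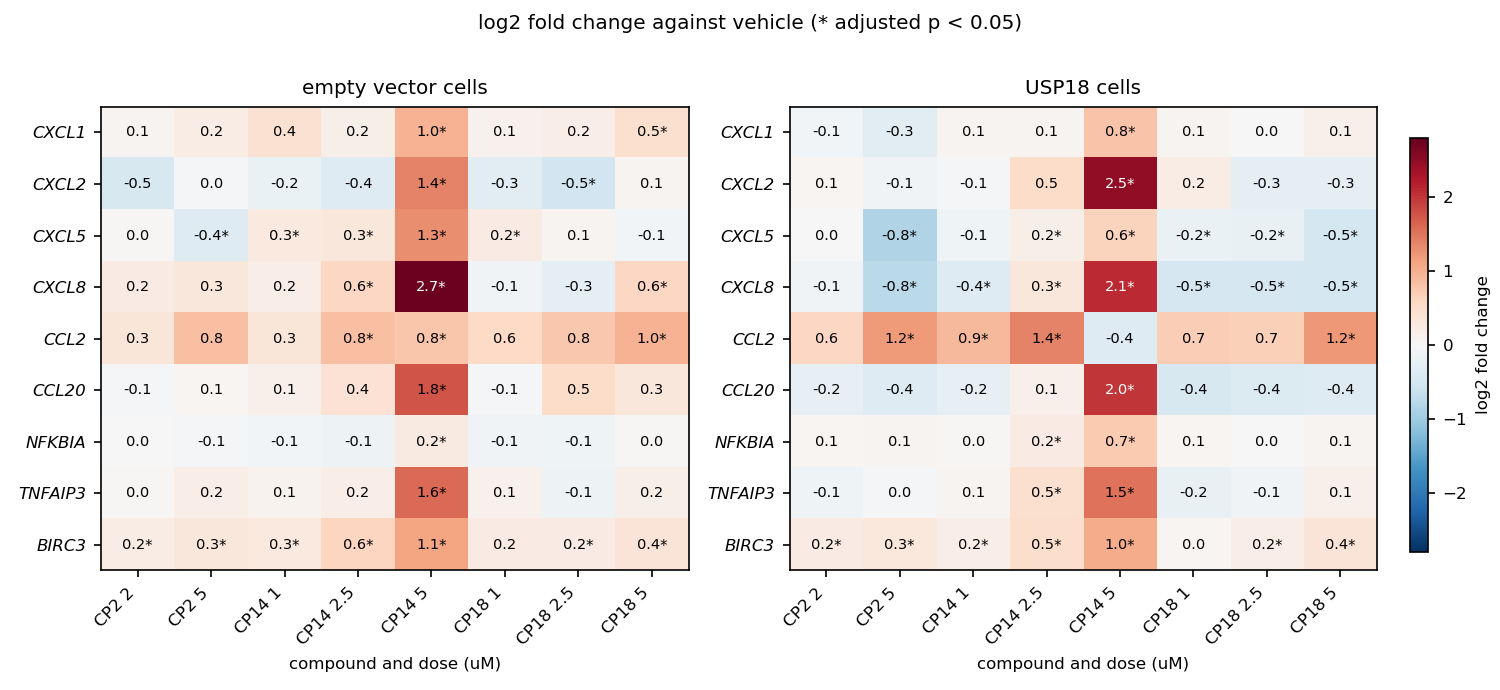
Log2 fold change against vehicle (color and printed value, red higher and blue lower) of the 9 members tested in every fit, by compound and dose in µM (columns), in empty-vector cells (left) and USP18 cells (right). The 5 µM CP14 column stands out in both cell types, BIRC3 is above 0 in every column with an adjusted p under 0.05 in 14 of the 16, and in USP18 cells CXCL5 and CXCL8 are lower with 5 µM CP2 and with CP18.

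CCL2, the monocyte chemokine, had a pattern of its own in USP18 cells. It stood at 1.79, 0.976 and 2.49 CPM with vehicle, at 3.02, 3.61 and 3.24 CPM with 1 µM CP14, at 5.41, 4.57 and 3.73 CPM with 2.5 µM CP14 and at 1.87, 0.792 and 1.48 CPM with 5 µM CP14. The level was thus higher at both lower doses than at the highest. The log2 changes against vehicle were 0.91 (adjusted p = 0.027), 1.38 (3.3e-04) and -0.35 (0.36). With 5 µM CP2 and 5 µM CP18 CCL2 rose in USP18 cells by 1.195 and 1.205 on the log2 scale (adjusted p = 0.0035 and 0.0051). Without replicate 2 of the USP18 vehicle group, the library with the lowest CCL2 level there, these changes were 0.90 and 0.92 (edgeR, adjusted p = 0.022 and 0.031), under the threshold of size. Without replicate 3 of that group CCL2 passed the threshold also with 1 µM CP14 (log2 1.245, edgeR, adjusted p = 0.0105) and with 1 and 2.5 µM CP18 (1.03 and 1.01, adjusted p = 0.033 and 0.030). In empty-vector cells CCL2 rose by 0.97 with 5 µM CP18 (adjusted p = 0.037) and by 0.84 with 2.5 µM CP14 (0.043), of which 7 and 4 of 12 fits without 1 library kept an adjusted p below 0.05. The change with CP18 was 1.07 without replicate 3 of that treated group (edgeR, adjusted p = 0.021).

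BIRC3 was higher with an adjusted p under 0.05 in 14 of the 16 comparisons with vehicle, more than any other member. In empty-vector cells its level was 42.4 ± 2.4 CPM with vehicle, then 51.4 ± 1.5, 65.0 ± 0.87 and 92.1 ± 2.0 CPM with 1, 2.5 and 5 µM CP14. In USP18 cells it was 83.6 ± 1.9 CPM with vehicle, then 95.3 ± 2.9, 118 ± 9.6 and 174 ± 2.5 CPM. Each step up in CP14 thus gave a higher mean in both cell types. With 5 µM CP18 in empty-vector cells the 3 libraries were spread, at 64.2, 55.3 and 43.2 CPM, and the adjusted p of BIRC3 there (0.024) ran from 4.6e-05 to 0.12 when 1 library was left out.

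CXCL8 and CXCL5 were lower in USP18 cells with several treatments that left them higher or little moved in empty-vector cells. CXCL5 with 5 µM CP2 and CXCL8 with 2.5 µM CP18 were exceptions. In USP18 cells CXCL8 fell from 18.9 ± 1.6 CPM to 11.2 ± 0.17 CPM with 5 µM CP2 (log2 -0.76, adjusted p = 2.1e-05) and to 13.5 ± 2.1 CPM with 5 µM CP18 (log2 -0.50, 0.0030). It also fell there with 1 µM CP14 (-0.36, 0.010) and with 1 and 2.5 µM CP18 (-0.47 and -0.46, 0.0023 and 0.0015). With the empty vector, CXCL8 had log2 changes of -0.11 and -0.25 with 1 and 2.5 µM CP18. Its libraries at 2.5 µM CP18 (7.63, 7.09 and 6.06 CPM) lay below all those with vehicle. The CXCL8 interaction was not called at either of these doses with all libraries. In empty-vector cells it rose with 5 µM CP18 from 8.19 ± 0.56 to 12.2 ± 0.52 CPM (log2 0.58, adjusted p = 0.0038), and stood at 10.1 ± 1.7 CPM with 5 µM CP2 (0.32, 0.068). CXCL5 fell with 5 µM CP2 in both cell types, from 255 ± 7.2 to 197 ± 9.4 CPM in empty-vector cells (-0.36, adjusted p = 8.9e-06) and from 151 ± 6.7 to 84.4 ± 1.6 CPM in USP18 cells (-0.85, 1.2e-10). In USP18 cells CXCL5 fell with 5 µM CP18 as well (-0.48, 1.3e-05). With 2.5 µM CP14 both genes rose in both cell types, CXCL8 by 0.57 and 0.31 and CXCL5 by 0.31 and 0.16 in empty-vector and USP18 cells (adjusted p from 4.4e-05 to 0.0072). TNFAIP3 rose below 5 µM in 1 comparison, with 2.5 µM CP14 in USP18 cells (log2 0.45, adjusted p = 0.012).

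Compounds were compared directly at matched doses in 10 comparisons, which cover 5 pairs of compound and dose in each cell type, with p-values adjusted over all genes of all 10. At 5 µM, CP14 gave higher levels than CP18 for 5 of the 9 members other than IL6 in empty-vector cells (11.7% of all genes called). In USP18 cells 6 of the 9 differed, 5 higher and 1 lower (16.2%). Against CP2, CP14 gave higher levels for 5 of the 9 in empty-vector cells (11.5%). In USP18 cells 7 of the 9 were called, of which 6 were higher and 1 lower (16.6%). The 3 CP14 libraries are the same in both pairs. CXCL8 differed by 2.17 ± 0.11 SE (log2) between CP14 and CP18 in empty-vector cells (55.1 ± 1.2 against 12.2 ± 0.52 CPM, adjusted p = 2.0e-12) and by 2.58 ± 0.10 in USP18 cells (80.5 ± 12 against 13.5 ± 2.1 CPM, 7.3e-14). CXCL2 differed by 1.32 ± 0.10 and 2.73 ± 0.13 (adjusted p = 1.5e-09 and 7.5e-13), and TNFAIP3 by 1.43 ± 0.11 and 1.37 ± 0.11 (2.4e-09 and 2.9e-09). CCL20 (1.47 and 2.36) and CXCL5 (1.39 and 1.10) were also called in both cell types.

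The lower member was CCL2 in USP18 cells, at 1.38 ± 0.54 CPM with 5 µM CP14, 4.09 ± 0.86 CPM with CP18 and 4.05 ± 0.12 CPM with CP2 (log2 differences of -1.55 ± 0.26 and -1.56 ± 0.26 SE, adjusted p = 7.9e-05 and 8.0e-05). In empty-vector cells CCL2 did not pass in either pair, with 95% intervals from -0.71 to 0.34 against CP18 and from -0.59 to 0.47 against CP2. In empty-vector cells the counts of IL6 were 14, 16 and 13 with CP14, 0, 1 and 1 with CP18, and 2, 2 and 0 with CP2. In USP18 cells its counts of 0, 5 and 6 with CP14 stood against 0, 0 and 0 with CP2 and 0, 1 and 0 with CP18.

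**Figure D4:**
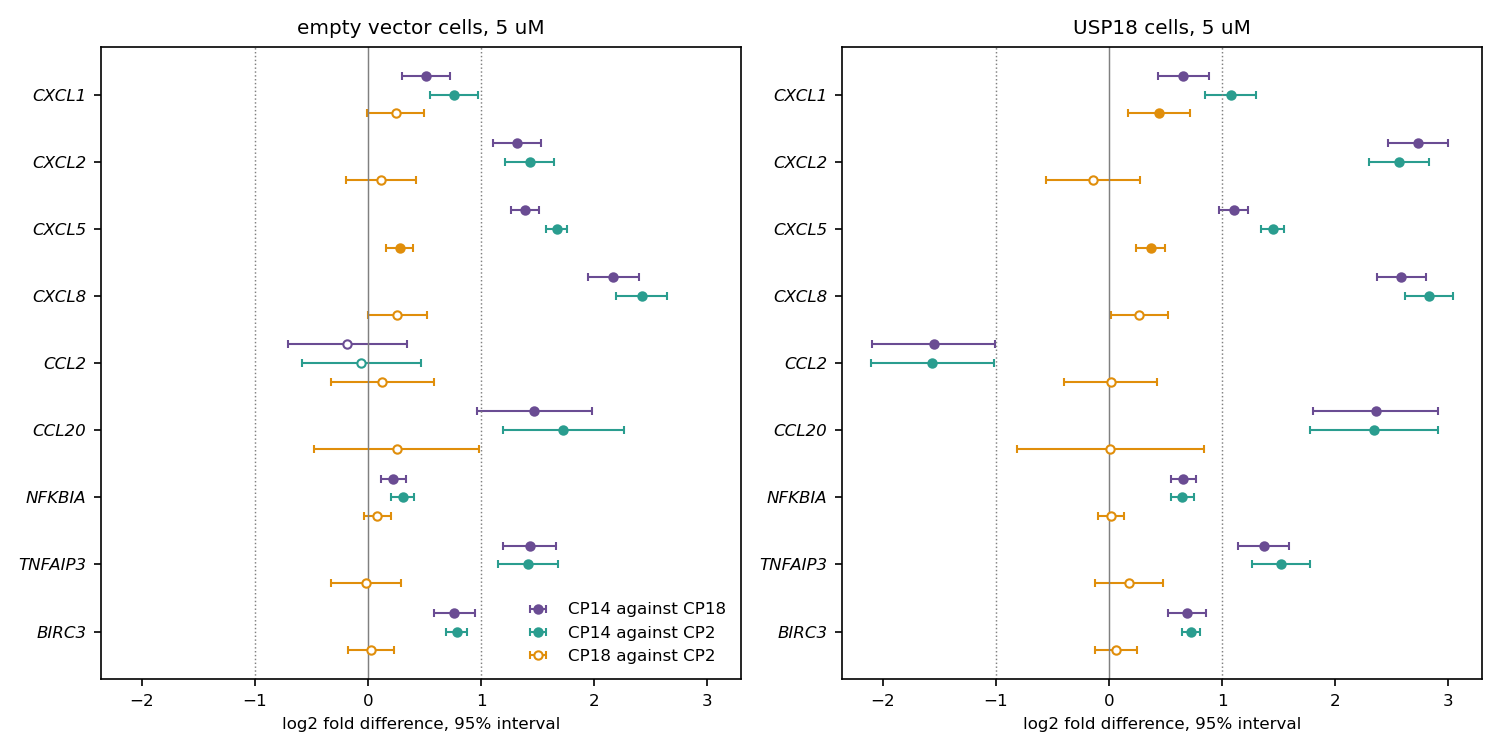
Log2 differences between compounds at 5 µM (horizontal axes) with 95% intervals for 9 members in empty-vector cells (left) and USP18 cells (right). Filled points have an adjusted p under 0.05 over all 10 comparisons. The intervals of CP14 against CP18 and CP2 lie above 0 for every gene shown but CCL2, whereas those of CP18 against CP2 reach no further than 1.

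CP18 and CP2 were closer to each other at 5 µM. No member was called between them in either cell type (0.244% and 0.218% of all genes called in empty-vector and USP18 cells). In edgeR 1 and 3 members had an unadjusted p under 0.05, and DESeq2 called 0. CXCL5 was higher with CP18 by 0.28 ± 0.06 SE in empty-vector cells and 0.37 ± 0.06 SE in USP18 cells as log2 differences (adjusted p = 0.0011 and 1.2e-04), and CXCL1 by 0.44 in USP18 cells (0.014). For CXCL8 the 95% interval of the difference was -0.0012 to 0.52 in empty-vector cells and 0.02 to 0.52 in USP18 cells, and for TNFAIP3 it was -0.32 to 0.29 and -0.12 to 0.48. CCL20 was the least certain, with intervals from -0.47 to 0.98 and from -0.82 to 0.84.

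At lower matched doses CP14 and CP18 differed less. No member was called at 1 µM (0.204% and 0.197% of all genes called in empty-vector and USP18 cells) or at 2.5 µM (0.42% and 1.43%), and DESeq2 called 0 in each. In edgeR 2 and 1 members had an unadjusted p under 0.05 at 1 µM, and 4 and 7 at 2.5 µM. At 2.5 µM the differences that passed 0.05 after adjustment all had CP14 higher, in 7 members in USP18 cells and 3 in empty-vector cells. CXCL8 differed by 0.82 ± 0.10 and 0.77 ± 0.09 SE (adjusted p = 3.7e-06 and 8.0e-07), CXCL5 by 0.25 and 0.37 (8.2e-05 and 1.2e-06), and BIRC3 by 0.37 and 0.32 (4.6e-05 and 7.3e-05). CXCL2, CCL2, TNFAIP3 and NFKBIA differed in USP18 cells alone by this criterion, by 0.78, 0.72, 0.56 and 0.23 (adjusted p from 9.5e-04 to 0.0054), and the difference between the cell types was not tested for this pair. At 1 µM only BIRC3 in USP18 cells passed (0.14, adjusted p = 0.0099), and the intervals of CXCL8 were 0.04 to 0.54 in empty-vector cells and -0.11 to 0.33 in USP18 cells.

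The step from 2.5 to 5 µM CP14 accounted for much of the change at the highest dose. Between these doses 4 of the 9 members other than IL6 were called in empty-vector cells, against 11.4% of all genes, and 5 of the 9 in USP18 cells, against 12.2%. In empty-vector cells CXCL8 (4.51-fold), CXCL2 (3.39-fold), TNFAIP3 (2.67-fold) and CCL20 (2.59-fold) rose, and IL6 had 0, 0 and 1 counts against 14, 16 and 13. CXCL5 differed by 0.996 ± 0.045 SE on the log2 scale and was called when 1 of 3 libraries was left out (replicate 1 with 2.5 µM or replicate 2 or 3 with 5 µM, edgeR, log2 1.02, 1.01 and 1.01, adjusted p = 2.7e-11, 3.0e-11 and 3.8e-11). In USP18 cells CXCL2 (3.96-fold), CCL20 (3.66-fold), CXCL8 (3.45-fold) and TNFAIP3 (2.11-fold) rose and CCL2 fell 3.29-fold (log2 -1.72 ± 0.25 SE, adjusted p = 7.8e-06).

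A list of 79 other genes of the pathway was examined by role, of which 61 could be tested with 5 µM CP14. Of these, CCL5 passed the filter only in comparisons that held 5 µM CP14, and TNIP3 only in those that held 2.5 or 5 µM CP14. Both are left out of the counts that follow. In empty-vector cells 12 of 59 were called higher and 2 lower (median log2 change 0.22), where 13.8% of all genes were called in either direction. In USP18 cells the counts were again 12 and 2 (median 0.29), against 18% of all genes. Of the 15 other target genes, 7 were called higher and 1 lower in empty-vector cells (median 0.67), and 5 higher and 1 lower in USP18 cells (median 0.81). Of the 5 NF-κB subunits, 2 were called higher in each cell type. They were NFKB2 and RELB, which pair in the non-canonical pathway, and are named after their values were seen (log2 1.715 and 1.935 in empty-vector cells, adjusted p = 1.6e-16 and 1.5e-13, then 1.205 and 1.54 in USP18 cells, 9.9e-15 and 4.0e-13). The canonical subunit RELA rose by 0.25 and 0.38 and NFKB1 by 0.40 in empty-vector cells (adjusted p = 7.3e-06, 9.0e-09 and 1.3e-06), all below the threshold of size, and NFKB1 had a log2 change of 0.07 in USP18 cells (adjusted p = 0.27). REL fell by 0.28 and 0.34 (adjusted p = 0.0064 and 7.5e-04). None of the 18 adaptors and kinases was called in empty-vector cells, where edgeR had 4 higher and 4 lower at an adjusted p under 0.05, and 1 was called higher and 1 lower in USP18 cells. These were the kinase genes IRAK1 (log2 1.12, adjusted p = 2.1e-16) and IKBKE (-1.155, 1.6e-09), also named after their values were seen. Of 11 inhibitors and deubiquitinases, 3 were called higher in USP18 cells and 1 in empty-vector cells. Only 2 of the 6 receptors for the members' ligands could be tested, and neither was called.

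The named genes of this list followed a rule on size. In empty-vector cells with 5 µM CP14, which with the same dose in USP18 cells had the most calls among the comparisons with vehicle (tied, and listed first), the largest rises were those of LCN2, which encodes an iron-siderophore-binding secreted protein (2.10 ± 0.18 to 23.5 ± 3.2 CPM, log2 3.47, adjusted p = 8.5e-16), BCL2A1, a BCL2 family survival gene (1.55 ± 0.69 to 11.2 ± 1.3 CPM, 2.83, 6.3e-11), and TRAF1, which encodes a protein that binds tumor necrosis factor receptors and is listed here among the inhibitors and deubiquitinases (2.19 ± 0.11 to 14.1 ± 0.68 CPM, 2.68, 1.8e-14). The chemokine gene CCL5 is given as a description for the reason above, with 0, 3 and 1 counts in vehicle libraries against 5, 14 and 5 after CP14. The only called falls were those of PTGS2, which encodes cyclooxygenase-2 (167 ± 11 to 54.3 ± 5.6 CPM, log2 -1.63, adjusted p = 6.7e-14), and of IL1R1, the signaling receptor for interleukin-1 (72.1 ± 3.3 to 32.9 ± 2.4 CPM, -1.14, 7.5e-13).

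**Figure D5:**
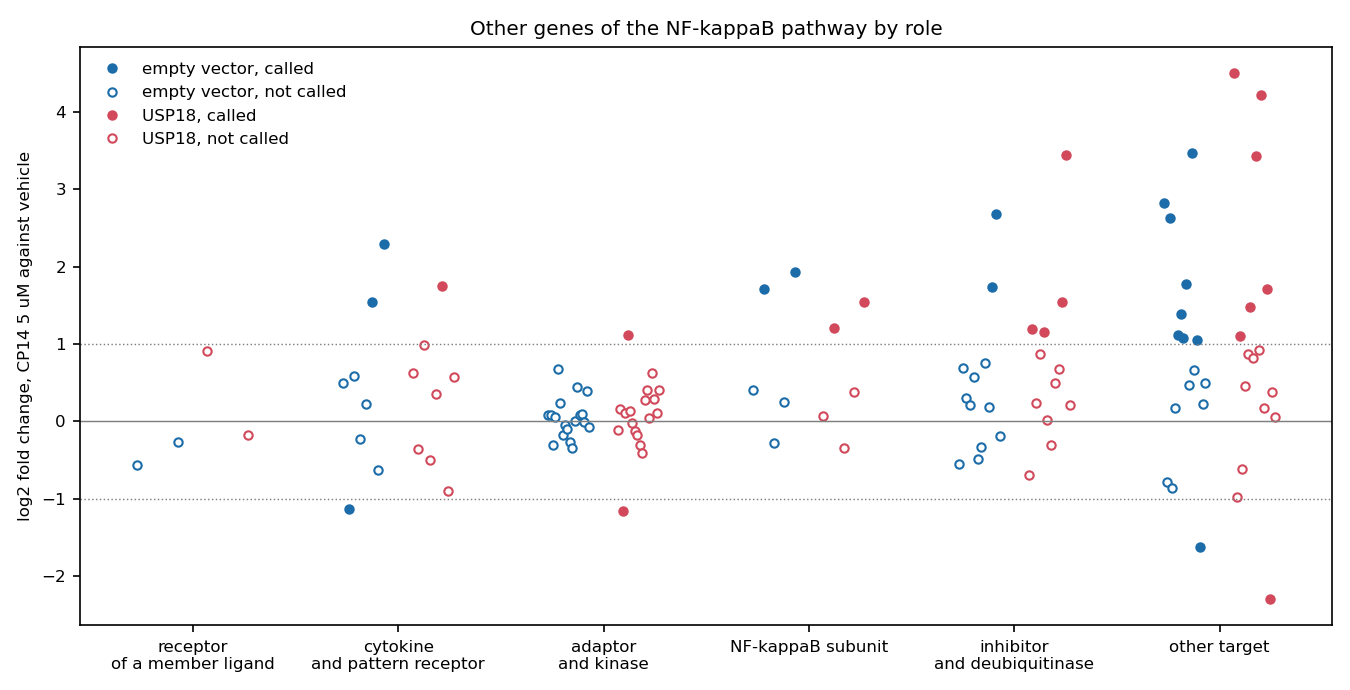
Log2 fold change with 5 µM CP14 against vehicle (vertical axis) of the 61 tested pathway genes by role (horizontal axis), in empty-vector cells (blue) and USP18 cells (red). Filled points were called (adjusted p under 0.05 and past the dotted lines at a log2 change of 1). CCL5 and TNIP3 are also drawn, but each passed the filter only through libraries in which it was higher, so that their fill is no test. In empty-vector cells the other target genes hold the most called rises, while no adaptor or kinase was called in empty-vector cells and IRAK1 and IKBKE were called in USP18 cells.

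With vehicle, 59 genes of the list were tested between USP18 and empty-vector cells. TNFRSF1B, ICAM1, BCL2A1 and LCN2 passed the filter only through the cells in which they were higher and are left out of the counts. Of the other 55 genes, 2 were called higher and 5 lower in USP18 cells, with a median log2 change of 0.05, where 10.1% of all genes were called, a share that includes genes of this kind. PTGS2 was higher in USP18 cells, 952 ± 26 against 167 ± 11 CPM (log2 2.515, adjusted p = 7.4e-19), as was RELB (22.4 ± 2.3 against 10.1 ± 1.8 CPM, 1.13, 4.4e-08). The complement gene C3 (35.3 ± 0.47 against 170.1 ± 2.9 CPM) and the cytokine gene IL32 (1.24 ± 0.37 against 5.86 ± 1.5 CPM) were lower in USP18 cells, by -2.27 and -2.26 on the log2 scale (edgeR adjusted p = 7.3e-19 and 1.7e-07). The 4 genes left out are described with no test. TNFRSF1B, which encodes a tumor necrosis factor receptor, stood at 1.15 ± 0.15 CPM in USP18 and 0.201 ± 0.14 CPM in empty-vector libraries. The adhesion gene ICAM1 had 28, 27 and 34 counts in USP18 libraries and 1, 2 and 5 in empty-vector libraries. BCL2A1 (0.211 ± 0.028 against 1.55 ± 0.69 CPM) and LCN2 (0.472 ± 0.079 against 2.10 ± 0.18 CPM) had lower values in USP18 libraries.

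For the 6 members above the floor whose group means varied by an SD over 0.5 on the log2 scale, the genes with the most similar pattern over the 18 groups were sought among 13985 candidates by the root mean square difference of centred group means (log2 CPM). Closest to TNFAIP3 were CEBPG (0.1025) and TNFRSF10B (0.104), and closest to BIRC3 were NTN4 (0.11) and CTNNAL1 (0.11). CCL20 was closest to RUNX1 (0.19) and LHX9 (0.20), CXCL5 to CASC19 (0.22) and RAB3B (0.24), CXCL8 to HK2 (0.24) and MIR100HG (0.27), and CXCL2 to CDKN1A (0.25) and EPHB2 (0.26). The groups share vectors, vehicle and doses, so that these are descriptions of likeness over 18 points.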

How the data were processed

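RNA from 54 A549 samples in 18 groups, assigned from the sample labels, was sequenced. By the methods and the submitters' processing notes, Cutadapt 1.18 trimmed the reads, STAR 2.7.0f aligned them to hg38 and RSEM (1.3.1 in the notes) quantified genes. The values deposited by the authors are RSEM expected counts per gene, not scaled between libraries, 94% of them whole. Library preparation is given as poly(A) selection by the labels and as ribosomal RNA depletion by the methods.

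Expected counts, rounded to whole numbers, entered edgeR 4.0.16 (R 4.3.3) with TMM scaling, filterByExpr (minimum count 10, minimum total 15) and the quasi-likelihood test, adjusted by Benjamini-Hochberg over all genes. Fits were made without pairing. They held the 6 vehicle libraries alone for the vectors, vehicle and 1 compound dose in both cell types for treatments and interactions, and the groups compared in both cell types for pairs of compounds or of CP14 doses. A call needed an adjusted p below 0.05 and, except for interactions, a log2 change beyond 1. The scripts were tested on simulated data. Log2 CPM used a prior count of 2 and the floor was 3 counts. All members were named. Pathway genes were named by size, up to 4 rises and 4 falls, in the treatment with most calls and with vehicle, if called without overlap. The members and lists were chosen with earlier results of these data known. Alternatives were RLE size factors, 2 other count filters, DESeq2 1.42.0, all 54 libraries in 1 fit, a replicate block and leaving out each library.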

Additional observations from a re-analysis of the deposited data

Results flagged for a closer look

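The response of 4 of the genes to a compound differed between USP18 and empty-vector cells by the interaction test, at 14 combinations of gene and dose. Each value is the log2 change in USP18 cells minus that in empty-vector cells, and all share the vehicle libraries with the other doses. CXCL5 had -0.49 with 5 µM CP2, -0.39 with 1 µM CP14, -0.68 with 5 µM CP14, and -0.40, -0.28 and -0.40 with 1, 2.5 and 5 µM CP18. CXCL8 had -1.08 with 5 µM CP2, -0.54 with 1 µM CP14, -0.66 with 5 µM CP14 and -1.08 with 5 µM CP18. CXCL2 had 0.86 and 1.08 with 2.5 and 5 µM CP14, and NFKBIA had 0.36 and 0.49 with the same doses. Over all genes the interaction was called for 0.92% with 5 µM CP2. With 1, 2.5 and 5 µM CP14 the share was 5.79%, 8% and 27.7%. With 1, 2.5 and 5 µM CP18 it was 7.19%, 0.197% and 0.268%. Without 1 library at a time, 10 of the 14 stayed called in every edgeR fit. The other 4, which were CXCL8 with 1 µM CP14, CXCL2 with 2.5 µM CP14 and CXCL5 with 2.5 and 5 µM CP18, lost the call without any 1 of 6, 10, 7 and 10 libraries (adjusted p up to 0.072, 0.12, 0.13 and 0.16), which are named with the results above.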

How the results depend on the processing

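Counts of members called were recomputed for 37 comparisons and include IL6 where it entered the fit. IL6 did so only through the 5 µM CP14 libraries, so its part in these totals is no test of IL6. Its calls were those of 5 µM CP14 against vehicle and CP2 in both cell types. In empty-vector cells they were also those against CP18 and against 2.5 µM CP14. DESeq2 called 1 member in place of 2 in the interactions with 1 µM CP14 and with 5 µM CP18, where it gave no adjusted p for CXCL8, and the fit of all 54 libraries called 1 in place of 2 with 1 µM CP14 and 0 in place of 1 with 2.5 µM CP18. With the replicate block 66 of the 68 called values stayed called and 1 member in place of 2 was called in the interactions with 2.5 µM CP14 (CXCL2 lost) and with 5 µM CP18 (CXCL5 lost). In none of the 29 comparisons checked did all same-numbered libraries deviate together, with a correlation over 0.1 in every pair. Weak correlations cannot exclude that same-numbered replicates were handled together, and the labels do not say. Leaving out 1 library at a time gave interaction counts from 1 to 2 with 1 and 2.5 µM CP14 and with 1 and 5 µM CP18, and from 0 to 1 with 2.5 µM CP18. Against vehicle in USP18 cells it gave 0 to 1 with 5 µM CP2, 1 µM CP14 and each dose of CP18, and in empty-vector cells 0 to 1 with 5 µM CP18. Of 804 called values recomputed in this way, 766 stayed called and 38 did not. RLE size factors and no filter kept all 68 calls, DESeq2 kept the 66 for which it gave an adjusted p, and a minimum of 10 counts in every library kept the 58 it could test, which left out IL6 throughout and CCL20 between compounds. None of the 147 member changes with an adjusted p under 0.05 changed sign in any alternative. Depth limits IL6 above all, which rests on at most 16 counts per library.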
